A study of Homo sapiens with 54 samples.

Results

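The interaction of 5 µM CP14 with USP18 compares the response to the compound in A549 cells that overexpress USP18 with the response in A549 cells that carry an insertless vector. Its members are the samples of 4 groups, chosen by compound, dose and vector, with 3 samples in each group and 12 of the 54 samples of the series in all. The interaction is the log2 fold change of CP14 over vehicle in USP18-overexpressing cells minus the same fold change in empty-vector cells, so that a positive value is a higher response in USP18-overexpressing cells. Of the 58870 genes listed, 28642 had a count in these samples and 15947 were abundant enough to be tested.

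A549 is an established human lung adenocarcinoma line. The series treated its transfectants for 48 hours with vehicle or with 3 compounds known here only by codes, CP14 among them, in 18 groups, and RNA was sequenced to ask which transcriptional responses depend on USP18. The vehicle groups were DMSO with the empty vector and DMSO with the USP18 expression vector, and the treated groups were 5 µM CP14 with the empty vector and 5 µM CP14 with the USP18 expression vector. The sources used here give neither the number of engineered populations per vector nor the promoter that drives USP18. The labels do not say whether the samples of a group were separate cultures.

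The values are expected counts per gene. Their totals were 21576354, 18072473 and 25609022 in empty-vector cells with vehicle and 18094048, 19775981 and 17866663 with CP14. In USP18-overexpressing cells the totals were 20010352, 20369238 and 20815786 with vehicle and 19550103, 19261985 and 18800366 with CP14. Levels are given below in CPM, which are counts brought to a common library size after scaling for composition, with scaling factors from 0.972 to 1.033. A gene was called when its adjusted p in edgeR was under 0.05.

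USP18 is a protease that removes ISG15, a ubiquitin-like modifier, from its target proteins, and it also restrains signalling from the type I interferon receptor. Cells under proteotoxic or oxidative stress raise transcripts through ATF4, the unfolded protein response, NRF2 and p53, while stress kinases raise immediate early genes such as those of the AP-1 transcription factor. A549 cells carry a defective KEAP1 and therefore hold NRF2 targets at a high level without treatment.

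The response to 5 µM CP14 differed between the cell types for 4478 of the 15947 genes, which is 28.1% of those tested. It was higher in USP18-overexpressing cells for 2167 genes (13.6%) and lower for 2311 (14.5%). The response was higher in USP18 cells for 23 of 37 immediate early genes (11 lower) and 13 of 36 p53 targets (2 lower). It was lower there for 22 of 26 ER chaperones (1 higher), 14 of 20 aminoacyl-tRNA synthetases (0 higher), 23 of 33 proteasome subunits (0 higher), 24 of 38 NRF2 targets (2 higher) and 10 of 13 mitochondrially encoded genes (0 higher). With a size of over 1 on the log2 scale added, 448 genes remained (2.81%), of which 261 were higher and 187 lower. The p-values measure the spread between these samples only, and in bulk RNA a smaller number of cells of a kind and less RNA per cell cannot be told apart.

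Taken over all genes tested, the response was somewhat larger in USP18 cells. Under CP14, 4971 genes rose in empty-vector cells (31.2%) and 5126 fell (32.1%), while 5484 rose in USP18 cells (34.4%) and 5475 fell (34.3%). Past a log2 size of 1, the empty-vector response held 2212 genes (13.9%; 1014 up and 1198 down) and the USP18 response held 2861 (17.9%; 1461 up and 1400 down). The median size of the response over all genes tested was 0.356 on the log2 scale in empty-vector and 0.422 in USP18 cells. Across the 15947 genes, which are not independent replicates, the responses had a Pearson r of 0.787, and they share no sample.

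The 4478 genes fell into 4 patterns. In 1442 (32.2%) the transcript rose more in USP18 cells, with median responses of 0.22 in empty-vector and 0.71 in USP18 cells. In 1613 (36%) it fell more in USP18 cells, with medians of -0.24 and -0.63. Another 698 (15.6%) rose more in empty-vector cells (0.45 and 0.08), and 725 (16.2%) fell more in empty-vector cells (-0.57 and -0.07). The response was thus larger in USP18 cells for 3055 genes, or 68.2%, and for 336 of the 448 genes past a size of 1, or 75%. The same share over all genes tested is not given here. Of the 8425 genes called in both cell types, 8089 moved the same way, and 336 moved in opposite directions, 181 up in USP18 cells and 155 up in empty-vector cells.

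**Figure D1:**
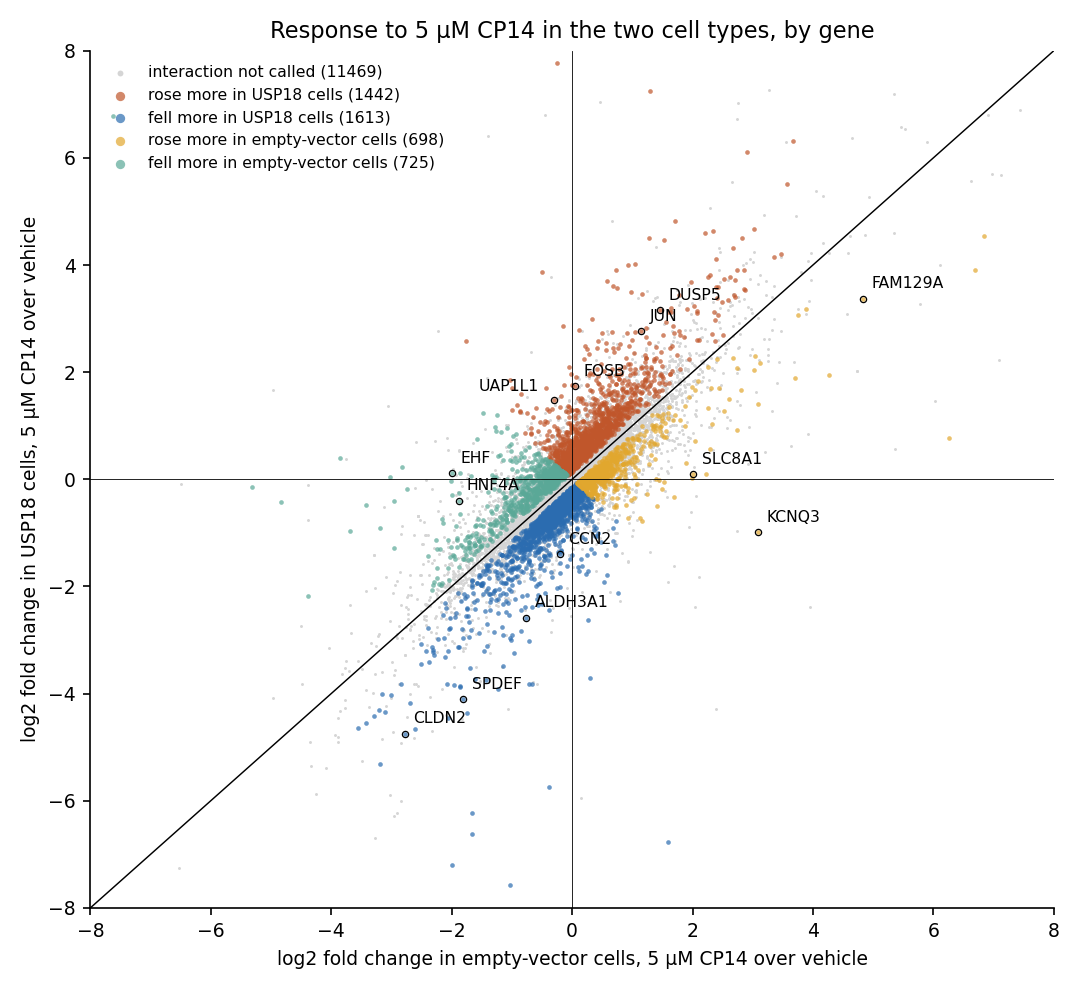
Log2 fold change of 5 µM CP14 over vehicle in empty-vector cells (horizontal axis) and in USP18-overexpressing cells (vertical axis), with 1 point per gene and colour for the pattern of a called interaction. Points off the diagonal are genes whose response differed, and 7 genes lie outside the axes, which end at 8.

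Called interactions were more frequent in abundant transcripts, where the spread between samples was small. Among genes over 100 CPM, 51% were called, 16.6% higher and 34.3% lower in USP18 cells. Between 10 and 100 CPM the share was 34.1%, and under 1 CPM it was 4.88%. The lists with mostly lower responses were abundant ones. In replicate 1 of empty-vector cells with vehicle, the mean log2 CPM was 6.94 for ER chaperones, 7.32 for synthetases and 7.32 for proteasome subunits. There it was 8.79 for NRF2 targets and 10.3 for mitochondrially encoded genes. No list was compared with genes of like abundance. The median standard error of the interaction was 0.115, and the smallest called value had a size of 0.125.

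The cell types also differed at baseline. With vehicle, the level of 1648 genes (10.3%) was apart by over 1 on the log2 scale in the cell types, 755 higher and 893 lower in USP18 cells. With 5 µM CP14 the number was 1554 (9.74%), 810 higher and 744 lower. The vehicle samples enter both the baseline difference and the interaction, so no relation between them was tested. For some genes below both are given, and for others only the interaction.

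USP18 itself (ENSG00000184979.9, chromosome 22, 18150118 to 18177397; positions here and below are GENCODE v44 on GRCh38) stood at 10.7, 10.8 and 11.2 CPM in empty-vector cells with vehicle and 9.41, 10.5 and 8.85 with CP14. In USP18 cells it stood at 1324, 1313 and 1356 CPM with vehicle and 1994, 2148 and 2083 with CP14. The transgene was therefore high in all 6 USP18 samples, with no overlap, and higher still under CP14. Its interaction was 0.82 (SE 0.09, adjusted p = 5.19e-09). The near-identical neighbour USP41 had counts of 511, 513 and 542 with vehicle and 818, 768 and 786 with CP14 in USP18 cells, against 0, 0 and 0 and 0, 4 and 0 in empty-vector cells, and how reads were divided between the 2 genes was not measured here.

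The immediate early genes mostly gained response in USP18 cells. Of 37 tested, 23 were higher and 11 lower in USP18 cells, and the median interaction was 0.51, against -0.01 over all genes. Their median response was 0.38 in empty-vector and 0.71 in USP18 cells, and their median baseline difference was -0.12.

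JUN (ENSG00000177606.6, chromosome 1, 58776845 to 58784048), which encodes a core AP-1 subunit, stood at 64.2, 63.8 and 67.2 CPM in empty-vector cells with vehicle and 149, 148 and 136 with CP14, and at 26.9, 26.2 and 27.8 CPM with vehicle and 162, 195 and 194 under CP14 in USP18 cells. USP18 cells had the lowest values with vehicle and the highest with CP14, and no group overlapped another. JUN rose 2.22-fold in empty-vector and 6.81-fold in USP18 cells, an interaction of 1.62 on the log2 scale (SE 0.09, adjusted p = 5.56e-10), from a baseline difference of -1.27 (adjusted p = 6.48e-11).

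FOSB (ENSG00000125740.14, chromosome 19, 45467995 to 45475179), a partner of JUN in AP-1, stood at 15.8, 19.5 and 16.2 CPM with vehicle and 18.8, 17.0 and 17.4 under CP14 in the empty-vector controls, and at 7.74, 8.08 and 7.71 CPM with vehicle and 25.0, 28.2 and 25.4 under CP14 in USP18 cells. The empty-vector groups overlapped, while the USP18 samples were the lowest of the 12 with vehicle and the highest with CP14. The interaction was 1.68 (SE 0.13, adjusted p = 4.77e-12) and the baseline difference -1.12.

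DUSP5 (ENSG00000138166.6, chromosome 10, 110497907 to 110511533), a nuclear phosphatase that inactivates ERK, stood at 70.8, 70.2 and 67.2 CPM with vehicle and 189.7, 199 and 185 after CP14 in empty-vector controls. In USP18 cells the values were 35.3, 33.9 and 36.1 CPM with vehicle and 327, 303 and 309.8 after CP14. The order of the cell types was again reversed by CP14, without overlap. Its interaction was 1.69 (SE 0.06, adjusted p = 1.15e-19), and its baseline difference was -0.98.

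Several other immediate early genes, chosen after their values were seen, moved alike. KLF6, a zinc-finger factor, had responses of 1.00 in empty-vector and 2.60 in USP18 cells, and FOSL2, another AP-1 subunit, of -0.09 in empty-vector and 0.78 in USP18 cells. EGR1 responded by -0.29 in empty-vector and 0.49 in USP18 cells, opposite directions that were both called. All 3 were lower in USP18 cells with vehicle, with baseline differences of -0.38, -1.09 and -1.30.

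Of the 11 members with a lower response, DUSP6, DUSP4, ETV4 and SPRY4 were also singled out after their values were seen, and they do not stand for the others. No list of ERK feedback genes was tested, and DUSP5, also an ERK phosphatase, had a higher response. DUSP6, a cytoplasmic ERK phosphatase, responded by 1.31 in empty-vector and 0.45 in USP18 cells, with a baseline difference of 2.28. DUSP4, a related phosphatase, responded by 0.71 in empty-vector and -0.17 in USP18 cells, and was also higher in USP18 cells with vehicle. ETV4, an ETS factor downstream of ERK, had an interaction of -0.70 and SPRY4, an ERK pathway inhibitor, of -0.48, with baseline differences of 1.27 and 1.54. These genes started higher in USP18 cells, and JUN, FOSB and DUSP5 started lower. The vehicle samples enter both the start level and the response, so no relation of these was tested.

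The growth regulator MYC, from the list of G1 genes, followed the AP-1 genes. It (ENSG00000136997.18, chromosome 8, 127735434 to 127742951) measured 144, 144 and 144 CPM in vehicle-treated empty-vector cells and 167, 170.1 and 166 CPM after CP14, as compared with 108, 110 and 111 CPM in vehicle-treated USP18 cells and 241, 289 and 287 CPM after CP14. Its level was lowest in USP18 cells with vehicle and highest in USP18 cells with CP14. The interaction was 1.09 (SE 0.07, adjusted p = 1.82e-11) and the baseline difference -0.40.

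Genes of the ATF4 stress response went both ways. Of 38 tested, 10 were higher and 17 lower in USP18 cells, with a median interaction of -0.09 and median responses of 1.27 in empty-vector and 1.13 in USP18 cells. ATF4 itself, looked up after its values were seen, had an interaction of -0.03 that was not called.

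PPP1R15A (ENSG00000087074.8, chromosome 19, 48872212 to 48876059), which directs the phosphatase that reverses the translation block, was at 79.0, 88.2 and 83.4 CPM with vehicle and 356, 362 and 339 CPM with the compound when cells carried the empty vector, and at 81.4, 77.3 and 77.4 CPM and 619, 743 and 727 CPM, in the same order, when they overexpressed USP18. The vehicle groups overlapped, whereas the CP14 groups were far apart. It rose 4.22-fold in empty-vector and 8.85-fold in USP18 cells, an interaction of 1.07 (SE 0.09, adjusted p = 9.38e-07).

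DDIT3 (ENSG00000175197.12, chromosome 12, 57516588 to 57521737), the stress factor also known as CHOP, stood at 6.00, 7.97 and 7.00 CPM with vehicle and 38.9, 35.9 and 34.0 under CP14 in the empty-vector controls, and at 8.25, 8.13 and 6.88 CPM with vehicle and 88.4, 96.5 and 96.4 under CP14 in USP18 cells. The vehicle groups overlapped and the CP14 groups did not. Its interaction was 1.21 (SE 0.13, adjusted p = 5.14e-09). CEBPB, a bZIP partner of both ATF4 and CHOP, gained 1.09 (SE 0.12, adjusted p = 6.25e-05) from a baseline difference of -0.86.

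CHAC1 (ENSG00000128965.13, chromosome 15, 40952962 to 40956512), which degrades glutathione, went the other way. It measured 4.33, 5.14 and 5.07 CPM in vehicle-treated empty-vector cells and 31.1, 37.4 and 33.4 CPM after CP14, as compared with 7.79, 10.4 and 10.1 CPM in vehicle-treated USP18 cells and 32.7, 26.5 and 30.8 CPM after CP14. The cell types were apart with vehicle and overlapped with CP14. Its interaction was -1.14 (SE 0.16, adjusted p = 1.82e-06) and its baseline difference 0.96.

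Further members of the same list were chosen after their values were seen, and they do not stand for the others. ASNS, asparagine synthetase, responded by 1.79 in empty-vector and 1.11 in USP18 cells. PHGDH, the entry enzyme of serine synthesis, responded by 1.32 in empty-vector and 0.71 in USP18 cells, and MTHFD2, a mitochondrial folate enzyme, by 1.58 in empty-vector and 1.15 in USP18 cells. SLC38A2, a neutral amino acid transporter, responded by 0.34 in empty-vector and -0.37 in USP18 cells, from a baseline 1.73 higher in USP18 cells.

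Of 20 cytosolic aminoacyl-tRNA synthetases, which charge tRNAs with amino acids, 0 were higher and 14 lower in USP18 cells, with a median interaction of -0.29. The median response was 0.42 in empty-vector and 0.16 in USP18 cells, and the median baseline difference was -0.05. WARS (ENSG00000140105.18, chromosome 14, 100333790 to 100376805), the tryptophan enzyme, was at 125, 126 and 131 CPM with vehicle and 373, 378 and 379.6 CPM with the compound when cells carried the empty vector, and at 122, 122 and 123 CPM and 234, 219 and 234 CPM, in the same order, when they overexpressed USP18. With vehicle the cell types lay close together, and with CP14 the empty-vector samples were all higher. The interaction was -0.66 (SE 0.05, adjusted p = 8.17e-12).

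FARSB (ENSG00000116120.10, chromosome 2, 222566899 to 222656092), a subunit of the phenylalanine enzyme, stood at 111, 100 and 111 CPM with vehicle and 117, 113 and 112 under CP14 in the empty-vector controls, and at 106, 109 and 104 CPM with vehicle and 69.1, 66.5 and 69.1 under CP14 in USP18 cells. The USP18 samples with CP14 were below the other 9, which lay together. Its interaction was -0.72 (SE 0.06, adjusted p = 4.6e-11). IARS and MARS, the isoleucine and methionine enzymes, had interactions of -0.51 and -0.48.

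Most of the ER chaperone list moved together. Of 26 genes tested, 22 were lower in USP18 cells and 1 higher, with a median interaction of -0.38. Their median response was 0.11 in empty-vector and -0.08 in USP18 cells, and the median baseline difference was 0.20. The mean log2 CPM over the list was 6.94, 6.94 and 6.92 with vehicle and 7.05, 7.05 and 7.07 under CP14 in empty-vector cells. In USP18 cells it was 7.12, 7.13 and 7.15 with vehicle and 6.95, 6.84 and 6.90 with CP14, so the cell type with the higher level changed.

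PDIA4 (ENSG00000155660.11, chromosome 7, 149003062 to 149028662), a protein disulphide isomerase, measured 420.2, 407 and 399 CPM in vehicle-treated empty-vector cells and 243, 247 and 255 CPM after CP14, as compared with 499.9, 489 and 498 CPM in vehicle-treated USP18 cells and 191, 152 and 164 CPM after CP14. USP18 samples were the highest with vehicle and the lowest with CP14. The interaction was -0.83 (SE 0.08, adjusted p = 2.49e-06), from a baseline difference of 0.28.

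HSP90B1 (ENSG00000166598.15, chromosome 12, 103930107 to 103953931), the ER-resident HSP90, was at 1334, 1367 and 1358 CPM with vehicle and 1232, 1197 and 1256 CPM with the compound when cells carried the empty vector, and at 1891, 1858 and 1872 CPM and 1197, 1010 and 1030 CPM, in the same order, when they overexpressed USP18. With vehicle every USP18 sample was higher, and with CP14 1 of them reached the empty-vector range while the others lay below it. The interaction was -0.66 (SE 0.06, adjusted p = 5.26e-08).

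PDIA3, a further disulphide isomerase, had an interaction of -0.65, and WFS1, an ER membrane protein, of -0.60. HSPA5, the main ER chaperone BiP, and XBP1, the factor that induces chaperones, were looked up after their values were seen. HSPA5 responded by 1.19 in empty-vector and 0.82 in USP18 cells, and XBP1 by -0.31 in empty-vector and -0.89 in USP18 cells. The only member with a higher response was ERN1, which encodes the sensor IRE1, at 0.31 (SE 0.07, adjusted p = 0.00101).

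The promoters of FOSB, PPP1R15A, PDIA4 and HSP90B1 are shown because these genes carry the opposite movements of stress transcripts. Each is the 250 bases before the start of the RefSeq transcript on GRCh38.p14. For PPP1R15A, PDIA4 and HSP90B1 that start lies inside the GENCODE gene given above, so much of the window does too. The windows are written in the direction of the gene: FOSB chr19:45467746-45467995 (+), PPP1R15A chr19:48872171-48872420 (+), PDIA4 chr7:149028491-149028740 (−) and HSP90B1 chr12:103930160-103930409 (+). Capitals mark matches on either strand to any of 8 motifs: the CHR motif, spelled TTTGAA, the box spelled CCAAT, the AP-1 motif, spelled TGANTCA, the cyclic AMP element CRE, spelled TGACGT, the ATF4 element CARE, spelled TGATGNAA, the antioxidant element ARE, spelled TGACNNNGC, the interferon element ISRE, and the E-box, spelled CACGTG.
FOSB: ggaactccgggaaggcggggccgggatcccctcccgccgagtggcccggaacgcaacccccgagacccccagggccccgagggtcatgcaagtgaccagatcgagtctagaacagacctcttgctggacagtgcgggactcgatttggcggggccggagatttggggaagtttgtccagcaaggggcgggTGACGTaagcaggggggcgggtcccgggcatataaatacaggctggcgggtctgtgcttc
PPP1R15A: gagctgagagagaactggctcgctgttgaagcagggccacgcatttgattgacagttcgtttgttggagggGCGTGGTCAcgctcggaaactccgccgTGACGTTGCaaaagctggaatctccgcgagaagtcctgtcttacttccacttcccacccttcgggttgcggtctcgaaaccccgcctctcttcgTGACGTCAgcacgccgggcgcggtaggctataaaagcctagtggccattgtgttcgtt
PDIA4: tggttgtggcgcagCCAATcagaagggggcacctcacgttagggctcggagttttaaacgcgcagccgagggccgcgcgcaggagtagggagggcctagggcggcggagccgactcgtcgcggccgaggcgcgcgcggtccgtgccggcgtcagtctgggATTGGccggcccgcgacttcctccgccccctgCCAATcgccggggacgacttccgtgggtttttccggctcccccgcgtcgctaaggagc
HSP90B1: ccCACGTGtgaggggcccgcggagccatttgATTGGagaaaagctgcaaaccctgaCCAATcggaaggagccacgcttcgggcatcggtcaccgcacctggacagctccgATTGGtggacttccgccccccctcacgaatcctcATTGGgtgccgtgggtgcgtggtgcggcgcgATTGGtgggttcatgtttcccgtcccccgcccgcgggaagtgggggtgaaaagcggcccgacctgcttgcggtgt

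FOSB had a CRE match 60 bases before its RefSeq start. PPP1R15A had CRE matches at 152, 58 and 56 bases and ARE matches at 179 and 152; the CRE and ARE at 152 overlap, and those at 58 and 56 are one palindromic run read on both strands. PDIA4 had CCAAT matches at 236, 90 and 58 bases, and HSP90B1 at 219, 194, 140, 106 and 75, beside an E-box at 248. Of 24 ER chaperone promoters matched by symbol, among 26 genes, 21 held a CCAAT (87.5%), against 34.6% of 11597 promoters of tested genes and 33% of all 27305 in the table. The shares of all promoters with the other motifs were 7.42% for CRE, 11% for ARE, 6.49% for the E-box, 6.6% for AP-1, 13.6% for CHR, 3.19% for CARE and 3.07% for ISRE. CRE matches were in 10.3% of the tested genes' promoters, and CARE matches in 2 of 16 synthetase promoters (12.5%). A match is a description of the letters, and binding was not measured.

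**Figure D2:**
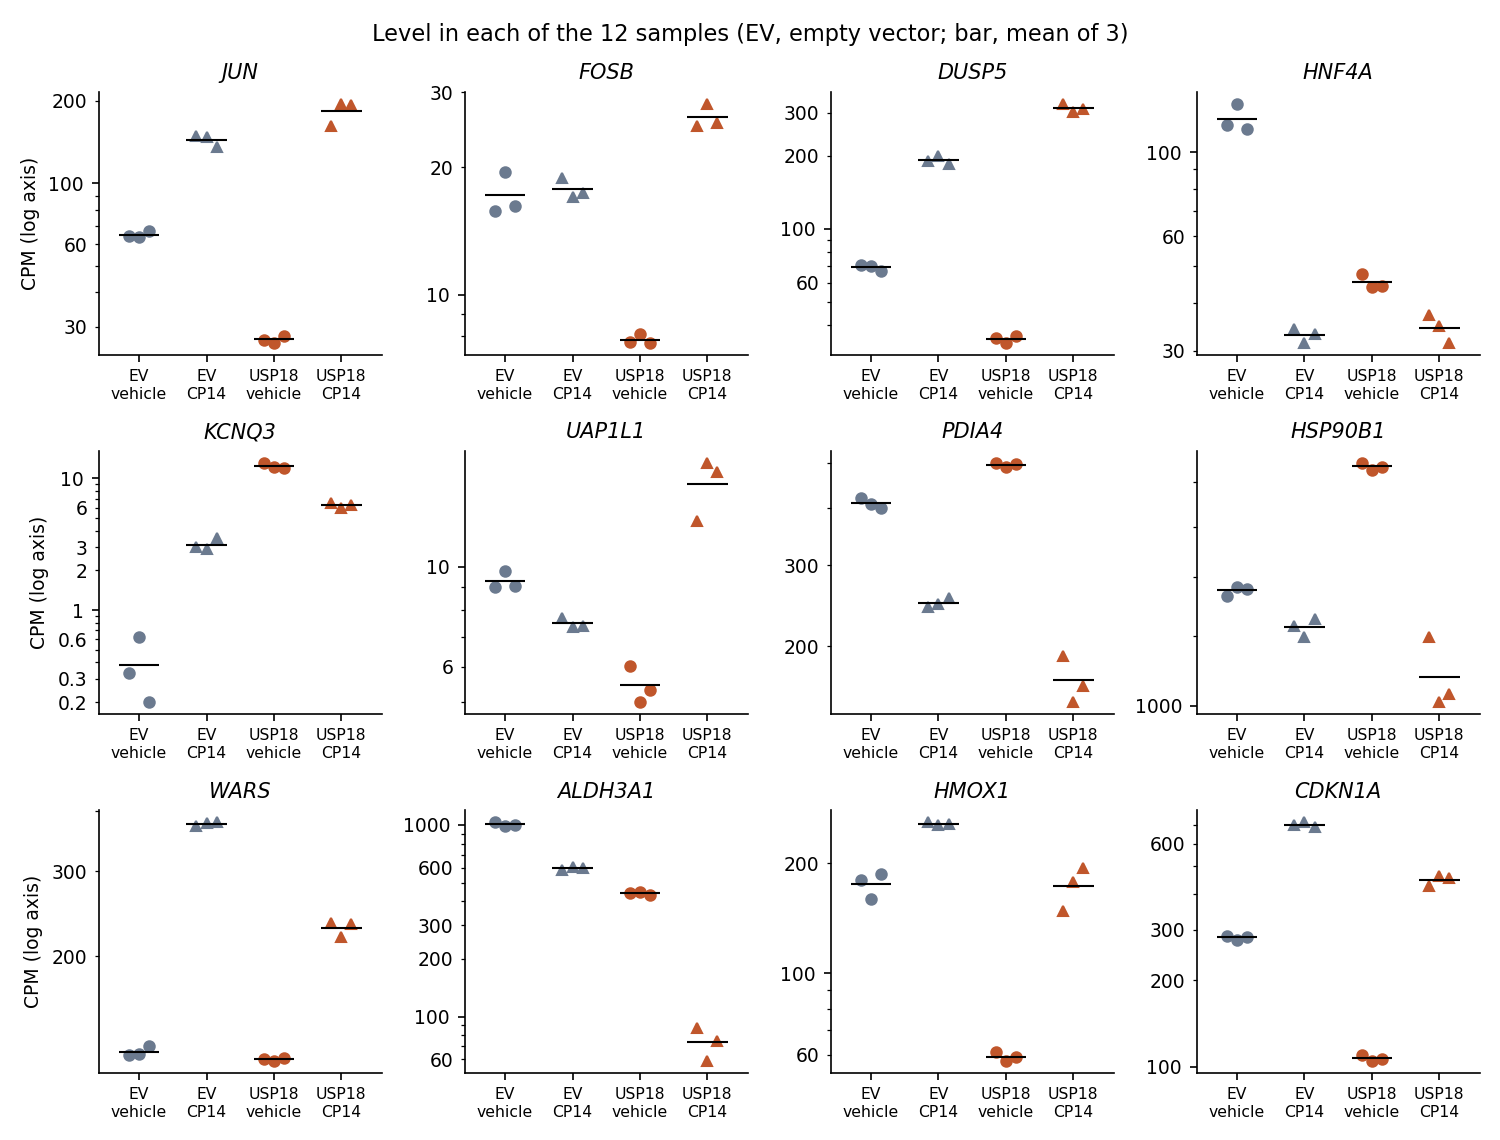
Level of 12 genes in each of the 12 samples in CPM on a log axis, with circles for vehicle, triangles for CP14, grey for empty-vector (EV) cells, orange for USP18 cells and bars for the mean of 3. JUN, FOSB and DUSP5 started lower and ended higher in USP18 cells, and PDIA4 and HSP90B1 did the reverse.

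Proteasome subunits, which degrade ubiquitinated proteins, also had the lower response in USP18 cells. Of 33 tested, 0 were higher and 23 lower, with a median interaction of -0.24, median responses of -0.10 and -0.33, and a median baseline difference of 0.14. PSMC6 (ENSG00000100519.12, chromosome 14, 52707178 to 52728590), an ATPase of the regulatory particle, stood at 123, 127 and 128 CPM with vehicle and 112, 107 and 113 under CP14 in the empty-vector controls, and at 145, 140.1 and 138 CPM with vehicle and 88.4, 89.4 and 91.0 under CP14 in USP18 cells. USP18 samples were again the highest with vehicle and the lowest with CP14. The interaction was -0.46 (SE 0.05, adjusted p = 5.17e-08). PSMB6, a catalytic subunit, and PSMC4 and PSMD11, of the regulatory particle, had interactions of -0.45, -0.42 and -0.44.

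NRF2 targets, which hold the enzymes of glutathione, quinone and NADPH metabolism, were lower on both counts. Of 38 tested, 24 had a lower response in USP18 cells and 2 a higher one, with a median interaction of -0.33. Their median response was -0.25 in empty-vector and -0.53 in USP18 cells, and the median baseline difference was -0.36. The mean log2 CPM of the list was 8.79, 8.75 and 8.76 with vehicle and 8.47, 8.49 and 8.50 under CP14 in empty-vector cells. In USP18 cells it was 8.27, 8.29 and 8.29 with vehicle and 7.70, 7.59 and 7.71 with CP14, the lowest of the 4 groups.

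ALDH3A1 (ENSG00000108602.18, chromosome 17, 19737984 to 19748943), an aldehyde dehydrogenase, measured 1037, 985 and 1003 CPM in vehicle-treated empty-vector cells and 583, 600.2 and 597 CPM after CP14, as compared with 444, 449 and 433 CPM in vehicle-treated USP18 cells and 87.6, 58.9 and 74.9 CPM after CP14. The 4 groups were fully separate, and USP18 cells were lower in both conditions. ALDH3A1 fell to 0.589 of its vehicle level in empty-vector and to 0.167 in USP18 cells, an interaction of -1.82 (SE 0.14, adjusted p = 1.72e-05). The baseline difference was -1.19.

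GPX2 (ENSG00000176153.12, chromosome 14, 64939152 to 64942746), a glutathione peroxidase, was at 357, 341 and 320 CPM with vehicle and 58.4, 43.7 and 55.9 CPM with the compound when cells carried the empty vector, and at 251, 248 and 268 CPM and 17.7, 9.15 and 15.6 CPM, in the same order, when they overexpressed USP18. No groups overlapped, and replicate 2 was the lowest under CP14 in both cell types. The interaction was -1.49 (SE 0.24, adjusted p = 0.00168). NQO1 (ENSG00000181019.13, chromosome 16, 69706996 to 69726668), a quinone reductase, stood at 1772, 1762 and 1792 CPM with vehicle and 1188, 1174 and 1212 under CP14 in the empty-vector controls, and at 1369, 1405 and 1391 CPM with vehicle and 621, 608 and 642 under CP14 in USP18 cells. Its interaction was -0.58 (SE 0.04, adjusted p = 7.32e-12).

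HMOX1 (ENSG00000100292.17, chromosome 22, 35380361 to 35394214), the haem-degrading enzyme, was 1 of the 2 NRF2 targets with the higher response, beside MAFG at 0.26. HMOX1 measured 179.7, 159.8 and 187 CPM in vehicle-treated empty-vector cells and 259, 254 and 256 CPM after CP14, as compared with 60.9, 57.7 and 59.2 CPM in vehicle-treated USP18 cells and 149, 178 and 194 CPM after CP14. USP18 cells were lower in both conditions, by less with CP14. The interaction was 1.01 (SE 0.13, adjusted p = 0.000399), from a baseline difference of -1.57.

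Mitochondrially encoded transcripts, which specify respiratory chain subunits, mostly fell further in USP18 cells. Of 13 tested, 0 were higher and 10 lower, with a median interaction of -0.51, median responses of -0.56 and -1.06 and a median baseline difference of -0.09. MT-CO2 (ENSG00000198712.1, chromosome M, 7586 to 8269), a subunit of cytochrome c oxidase, was at 3493, 3517 and 3577 CPM with vehicle and 1760, 1661 and 1693 CPM with the compound when cells carried the empty vector, and at 3784, 3489 and 3170 CPM and 907, 799 and 836 CPM, in the same order, when they overexpressed USP18. The vehicle groups overlapped, and with CP14 the USP18 samples lay at the bottom. The interaction was -0.99 (SE 0.08, adjusted p = 1.06e-06). MT-ND3, MT-CYB and MT-ND5 had interactions of -1.05, -0.77 and -0.70.

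**Figure D3:**
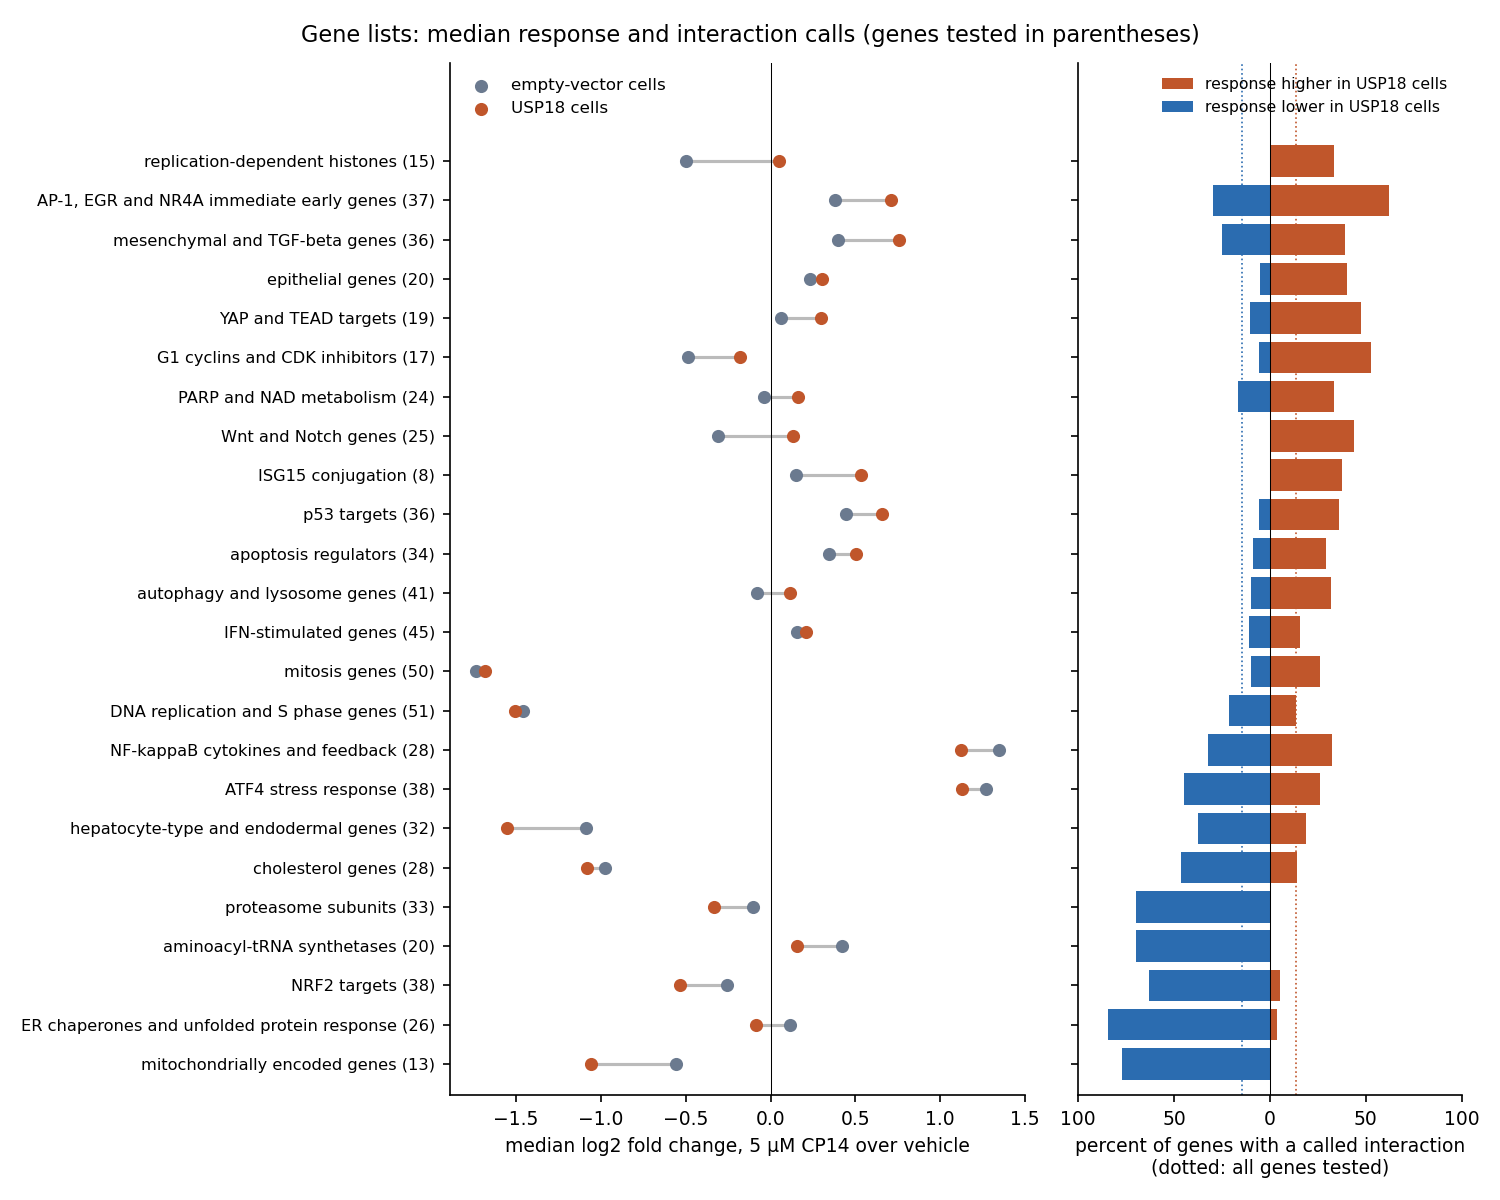
Median log2 fold change of 5 µM CP14 over vehicle for 24 gene lists in each cell type (left, dots) and percent of each list's genes with a called interaction (right, bars, higher to the right and lower to the left). Dotted lines mark the shares over all genes tested, 13.6% higher and 14.5% lower, which are not matched for abundance. Among genes over 100 CPM the shares were 16.6% and 34.3%.

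Among 36 p53 targets tested, 13 were higher and 2 lower in USP18 cells, with a median interaction of 0.16, median responses of 0.45 and 0.66 and a median baseline difference of -0.35. CDKN1A (ENSG00000124762.13, chromosome 6, 36676460 to 36687337), the inhibitor p21, stood at 287, 276 and 284 CPM with vehicle and 696, 715 and 687 under CP14 in the empty-vector controls, and at 109.7, 105 and 106 CPM with vehicle and 426, 462 and 456 under CP14 in USP18 cells. USP18 cells were lower in both conditions, and the gap narrowed with CP14. The interaction was 0.76 (SE 0.05, adjusted p = 4.58e-13), from a baseline difference of -1.40. TP53INP1, a stress-induced p53 cofactor, responded by 0.05 in empty-vector and 0.99 in USP18 cells, and AEN, an apoptosis nuclease, by 0.60 in empty-vector and 1.60 in USP18 cells. GADD45A, a growth arrest protein, rose in both, with an interaction of 0.83. The 2 members with a lower response were PLK2, a polo-like kinase, and RRM2B, a ribonucleotide reductase subunit, both at -0.20. Neither held without replicate 2 of USP18 cells with vehicle, at -0.18 for PLK2 and -0.16 for RRM2B, RRM2B was also lost with all 54 samples fitted together (adjusted p = 0.0555), and PLK2 without CP14-treated USP18 replicates 2 and 3, at -0.17 and -0.15.

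All 50 mitosis genes tested fell in both, and so did all 51 genes of DNA replication and S phase. Of the mitosis genes, 13 had a higher and 5 a lower response in USP18 cells (median 0.05), and of the S phase genes 7 and 11 (median 0.02). With 1 sample left out, the medians ran from 0.01 to 0.08 (mitosis; lowest without replicate 2 of empty-vector and highest without replicate 2 of USP18 cells with CP14) and from -0.01 to 0.06 (S phase; lowest without replicate 3 and highest without replicate 1 of USP18 cells with CP14). PLK1, the main polo-like kinase, chosen after its values were seen, was among the lower ones at -0.31. UBE2C, the ubiquitin-conjugating enzyme of the anaphase-promoting complex, fell less in USP18 cells, with an interaction of 0.71 (SE 0.08, adjusted p = 1.66e-07). RRM2, the ribonucleotide reductase subunit, measured 254, 259.7 and 278 CPM in vehicle-treated empty-vector cells and 56.9, 58.3 and 65.6 CPM after CP14, as compared with 254, 256 and 249 CPM in vehicle-treated USP18 cells and 35.5, 30.8 and 31.6 CPM after CP14. It started level and ended lower in USP18 cells, with an interaction of -0.82 (SE 0.07, adjusted p = 7.4e-10). Of 17 G1 genes, 9 were higher and 1 lower, with a median of 0.20, or 0.31 with genes at the floor of 3 counts set to their bound. The lower one was CCND1, cyclin D1, at -0.17, which lost its call without replicate 1 of USP18 cells with CP14 (-0.11), replicate 2 of empty-vector cells with vehicle (-0.14) or replicate 3 of USP18 cells with vehicle (-0.16). CDK2, an S phase kinase, responded by -0.96 in empty-vector and -0.37 in USP18 cells.

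Genes of epithelial identity also differed. Of 32 hepatocyte-type and endodermal genes, which A549 cells express, 6 were higher and 12 lower in USP18 cells, with a median interaction of -0.13 and median responses of -1.09 and -1.55. The median interaction moved by over 1.5 times when any sample with CP14 was left out, or replicate 3 of either vehicle group. It ran from -0.23 without replicate 1 of USP18 cells with CP14 to -0.03 without replicate 3 of USP18 cells with vehicle. The median baseline difference was -0.44. HNF4A (ENSG00000101076.16, chromosome 20, 44355699 to 44432845), the factor that drives such genes in liver, was at 118, 134 and 115 CPM with vehicle and 34.3, 31.5 and 33.2 CPM with the compound when cells carried the empty vector, and at 47.9, 44.3 and 44.5 CPM and 37.3, 34.8 and 31.5 CPM, in the same order, when they overexpressed USP18. The cell types were far apart with vehicle and overlapped with CP14. The interaction was 1.49 (SE 0.09, adjusted p = 3.32e-13) and the baseline difference -1.42.

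Of other endodermal factors, chosen after their values were seen, GATA6 had an interaction of 1.51, FOXA3 of 1.21 and FOXA1 of -0.51. Secreted liver-type products went both ways. Likewise chosen, FGB and FGA, chains of fibrinogen, had interactions of -1.12 and -0.99, CP, ceruloplasmin, of -1.13, and APOE, a lipid carrier, of 0.90. HPX, the haem carrier, had a higher response at 2.03 (SE 0.72), on 4 to 23 counts per sample. It lost its call without replicate 1 or 3 of empty-vector cells with CP14, replicate 1 or 2 of USP18 cells with CP14, replicate 1 or 2 of empty-vector cells with vehicle, or replicate 2 or 3 of USP18 cells with vehicle, at 1.75 to 2.03. MUC5B, an airway mucin, had one of -1.66 (SE 0.28, adjusted p = 0.00227), and MUC5AC, another, responded by 0.24 in empty-vector and -1.77 in USP18 cells (adjusted p of the interaction = 0.00271).

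SPDEF (ENSG00000124664.11, chromosome 6, 34537802 to 34556333), a factor of mucus-producing cells, stood at 13.1, 14.9 and 12.8 CPM with vehicle and 3.56, 3.38 and 4.73 under CP14 in the empty-vector controls, and at 12.1, 14.2 and 15.7 CPM with vehicle and 0.947, 0.402 and 1.09 under CP14 in USP18 cells. The vehicle groups overlapped, and the USP18 samples with CP14 were the lowest. The interaction was -2.30 (SE 0.27, adjusted p = 1.25e-07). EHF (ENSG00000135373.12, chromosome 11, 34621093 to 34663288), an epithelial ETS factor, measured 6.33, 6.22 and 5.71 CPM in vehicle-treated empty-vector cells and 1.75, 1.16 and 1.67 CPM after CP14, as compared with 4.00, 3.97 and 3.37 CPM in vehicle-treated USP18 cells and 4.14, 4.37 and 3.77 CPM after CP14. It fell in empty-vector cells, while the USP18 groups overlapped. Its interaction was 2.11 (SE 0.25, adjusted p = 4.52e-08). Of 20 epithelial genes, 8 were higher and 1 lower, with a median of 0.21, and the lower one was CLDN2, a tight junction protein, at -1.97 (SE 0.22).

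Of 36 mesenchymal and TGF-beta genes, 14 were higher and 9 lower (median 0.23, responses 0.40 and 0.76, baseline -0.64). SNAI1, a repressor of epithelial genes, responded by -0.41 in empty-vector and 0.82 in USP18 cells, with an interaction of 1.24 (SE 0.17, adjusted p = 6.41e-07). COL3A1, a fibrillar collagen, fell more in USP18 cells, at -1.84 (SE 0.59), on 3 to 70 counts per sample, and lost its call without replicate 3 of empty-vector cells with CP14 (-1.41). Of the lower members chosen after their values were seen, THBS1, a matricellular protein, was at -0.89 and FN1, fibronectin, at -0.79. ZEB2, a repressor related in function to SNAI1, had counts of 29, 33 and 26 with vehicle and 64, 57 and 70 under CP14 with the empty vector, and 0, 3 and 3 with vehicle and 38, 50 and 54 under CP14 with USP18. Its counts in USP18 cells with vehicle were at the floor, so no fold change is given.

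Of 19 YAP and TEAD targets, 9 were higher and 2 lower, with a median of 0.20 and a median baseline difference of -0.16. AXL (ENSG00000167601.12, chromosome 19, 41219223 to 41261766), a receptor tyrosine kinase, was at 167, 166 and 179.8 CPM with vehicle and 448, 486 and 469.8 CPM with the compound when cells carried the empty vector, and at 167, 164 and 177 CPM and 764, 807 and 775 CPM, in the same order, when they overexpressed USP18. The cell types overlapped with vehicle and were apart with CP14, and the interaction was 0.76 (SE 0.06, adjusted p = 2.75e-12). ANKRD1, a cofactor of striated muscle genes, had an interaction of 1.66 (SE 0.26, adjusted p = 1.39e-05). CCN2 (ENSG00000118523.6, chromosome 6, 131948176 to 131951372), a matricellular growth factor, stood at 50.8, 52.1 and 56.3 CPM with vehicle and 48.7, 44.9 and 44.5 under CP14 in the empty-vector controls, and at 105, 104 and 101 CPM with vehicle and 39.9, 37.6 and 39.9 under CP14 in USP18 cells. It went from highest to lowest in USP18 cells, with an interaction of -1.19 (SE 0.07, adjusted p = 6.45e-14) and a baseline difference of 0.96. The other lower target was CRIM1, a membrane protein, at -0.22.

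Of 25 Wnt and Notch genes, 11 were higher and 0 lower in USP18 cells, with a median interaction of 0.18, median responses of -0.31 and 0.13, and a median baseline difference of -0.23. The median interaction was 0.42 without replicate 1 of empty-vector cells with CP14 and 0.29 without replicate 1 of USP18 cells with CP14. HES4 (ENSG00000188290.10, chromosome 1, 998962 to 1000172), a Notch target, measured 14.2, 14.8 and 16.1 CPM in vehicle-treated empty-vector cells and 14.2, 17.9 and 16.2 CPM after CP14, as compared with 6.78, 7.99 and 7.13 CPM in vehicle-treated USP18 cells and 19.0, 22.8 and 21.0 CPM after CP14. The empty-vector groups overlapped and the USP18 groups did not. The interaction was 1.42 (SE 0.14, adjusted p = 1.59e-09). JAG2, a Notch ligand, responded by -0.66 in empty-vector and 0.33 in USP18 cells, and HEY1, another Notch target, had an interaction of 0.99.

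Of 28 cholesterol genes, 25 fell with the empty vector and 24 with USP18, with median responses of -0.98 and -1.08. The response was lower for 13 and higher for 4 in USP18 cells, with a median of -0.21 and a median baseline difference of 0.27. LSS and MVK, enzymes of sterol and mevalonate synthesis, and ABCA1, a sterol exporter, named after their values were seen, had a higher response in USP18 cells, at 0.43, 0.40 and 0.27.

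Apoptosis regulators leaned higher in USP18 cells, with 10 of 34 higher and 3 lower, a median of 0.11 and a median baseline difference of -0.01. MCL1, an inhibitor of mitochondrial apoptosis, measured 263, 272 and 268 CPM in vehicle-treated empty-vector cells and 547, 533 and 516 CPM after CP14, as compared with 297, 302 and 303 CPM in vehicle-treated USP18 cells and 933, 948 and 905 CPM after CP14. Every USP18 sample was above the empty-vector samples of the same treatment. The interaction was 0.64 (SE 0.05, adjusted p = 4.11e-12), and that of BCL2A1, a related inhibitor, was 1.67 (SE 0.43). The lower genes were TNFRSF1A, the main TNF receptor, at -0.27, CASP9, the apoptosome caspase, at -0.36, and XIAP at -0.18. XIAP lost its call with all 54 samples fitted together (adjusted p = 0.103). It was also lost, at -0.16 to -0.14, without replicate 1 of either empty-vector group, replicate 1 or 2 of USP18 cells with vehicle, or replicate 3 of USP18 cells with CP14. CASP9 lost its call with DESeq2 (-0.36) and without replicate 3 of empty-vector cells with CP14 (-0.33), replicate 2 of them with vehicle (-0.34), replicate 2 of USP18 cells with CP14 (-0.33), or replicates 2 (-0.35) or 3 (-0.32) of USP18 cells with vehicle. BCL2L11, the activator BIM, had responses of -0.82 in empty-vector and -0.15 in USP18 cells.

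Autophagy and lysosome genes gave 13 higher and 4 lower of 41, with a median of 0.08, or 0.09 with floor genes at their bound, and 0.05 without replicate 1 of empty-vector cells with CP14. ATG12 (ENSG00000145782.13, chromosome 5, 115828200 to 115841837), a ubiquitin-like protein of autophagosome formation, was at 51.5, 52.6 and 54.1 CPM with vehicle and 73.1, 66.7 and 66.0 CPM with the compound when cells carried the empty vector, and at 67.7, 66.0 and 64.8 CPM and 183, 193 and 187 CPM, in the same order, when they overexpressed USP18. The USP18 samples with CP14 were far above the other 9. The interaction was 1.13 (SE 0.06, adjusted p = 4.78e-15). NEU1, a lysosomal sialidase, and MITF, a factor of lysosome genes, had interactions of 0.76 and 0.75. Of 24 PARP and NAD genes, 8 were higher and 4 lower (median 0.19), and the higher ones included NMNAT1, the nuclear NAD synthase, at 0.73, and SIRT2, a deacetylase that uses NAD, at 0.63. NMRK1 and BST1 were also higher, at 0.64 and 0.59, but each lost its call in 10 of 20 alternatives, DESeq2 among them.

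Interferon-stimulated genes, the group closest to the known role of USP18, did not lean one way. Of 45 tested, 7 were higher and 5 lower, with a median of 0.05, median responses of 0.16 and 0.21 and a median baseline difference of 0.19. The median interaction was 0.01 to 0.02 without replicate 2 of empty-vector cells with vehicle, replicate 1 of USP18 cells with vehicle, replicate 2 or 3 of empty-vector cells with CP14, or replicate 1 or 2 of USP18 cells with CP14. ISG15 (ENSG00000187608.9, chromosome 1, 1001138 to 1014540) stood at 2.33, 1.92 and 2.25 CPM with vehicle and 2.52, 2.67 and 2.17 under CP14 in the empty-vector controls, and at 1.32, 1.44 and 1.81 CPM with vehicle and 4.14, 3.87 and 4.86 under CP14 in USP18 cells. Its level was low throughout, and the USP18 samples with CP14 were the highest. The interaction was 1.32 (SE 0.29, adjusted p = 0.00069). OAS1, a sensor of double-stranded RNA, had one of -0.84 (SE 0.11, adjusted p = 2.58e-07), TRIM25, a ligase for ISG15 and ubiquitin, of 0.57, and ISG20, an exonuclease, of 0.92. IRF1, a factor of interferon signalling looked up after its values were seen, had an interaction of 0.45. Of 8 genes of ISG15 conjugation, 3 were higher and 0 lower, and the 3 were the transgene USP18 itself and ISG15 and TRIM25 from above. The median of the 8 was 0.17, or 0.44 with floor genes at their bound. The first median was 0.41 without replicate 2 of empty-vector cells with CP14, and 0.33 for genes with at least 10 counts in every sample.

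Of 28 NF-kappaB cytokines and feedback genes, 25 rose with the empty vector and 22 with USP18, with median responses of 1.35 and 1.13. The response was higher for 9 and lower for 9, with a median of -0.07, or -0.12 with floor genes at their bound. The first median was -0.01 without replicate 2 and -0.18 without replicate 3 of empty-vector cells with vehicle, -0.12 without either replicate 2 or 3 of them with CP14, -0.10 without replicate 2 of USP18 cells with vehicle, and -0.16 for genes with at least 10 counts in every sample. IL32, a proinflammatory cytokine, had an interaction of 1.66 (SE 0.27, adjusted p = 8.89e-05) from a baseline of -2.26, and CXCL2, a neutrophil chemokine, one of 1.08 from -1.74. CXCL8, a further chemokine, and NFKB2, a subunit of NF-kappaB, chosen after their values were seen, had interactions of -0.66 and -0.51, from baselines of 1.21 and 0.87. Likewise chosen, the inhibitors NFKBIA and NFKBIE had higher responses, at 0.49 and 0.58, and the subunits NFKB1 and RELB lower ones, at -0.34 and -0.39.

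Of 15 replication-dependent histone genes, 5 were higher and 0 lower, with a median interaction of 0.58, median responses of -0.50 and 0.05 and a median baseline difference of -0.96. HIST1H2BD had an interaction of 0.92 (SE 0.16, adjusted p = 3.07e-05) and HIST1H2AC of 0.63. Most histone mRNAs lack a poly(A) tail, the labels give a poly(A) selection where the methods give depletion of ribosomal RNA, and how reads were divided between near-identical histone genes was not measured here. Of 8 short RNAs without a poly(A) tail, 0 were called in either direction, with a median interaction of 1.71. Replicates were far apart for these, with mean log2 CPM of 3.16, 4.26 and 1.61 in empty-vector cells with vehicle. In USP18 cells with vehicle the values were 1.02, 2.47 and 1.28.

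Genes outside these lists were also among those with large interactions. KCNQ3 (ENSG00000184156.17, chromosome 8, 132120861 to 132481095), a potassium channel subunit, measured 0.333, 0.622 and 0.201 CPM in vehicle-treated empty-vector cells and 3.01, 2.92 and 3.51 CPM after CP14, as compared with 13.1, 12.2 and 12.0 CPM in vehicle-treated USP18 cells and 6.48, 5.98 and 6.31 CPM after CP14. The level was higher with CP14 in empty-vector cells and lower with CP14 in USP18 cells, and no group overlapped another. The interaction was -4.08 (SE 0.28, adjusted p = 9.63e-13), and the baseline difference was 5.07 (adjusted p = 2.27e-20).

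SCG2 (ENSG00000171951.5, chromosome 2, 223596940 to 223602361), a secretory granule protein, was at 0.952, 0.678 and 0.885 CPM with vehicle and 1.04, 0.706 and 1.34 CPM with the compound when cells carried the empty vector, and at 28.8, 26.3 and 27.2 CPM and 5.78, 3.27 and 4.29 CPM, in the same order, when they overexpressed USP18. SLC8A1 (ENSG00000183023.18, chromosome 2, 40097270 to 40611053), a sodium and calcium exchanger, stood at 1.24, 1.75 and 1.49 CPM with vehicle and 5.41, 6.45 and 6.06 under CP14 in the empty-vector controls, and at 47.4, 51.5 and 46.2 CPM with vehicle and 58.9, 48.8 and 47.3 under CP14 in USP18 cells. SCG2 fell from a high level in USP18 cells with the empty-vector groups overlapping, and SLC8A1 rose from a low level in empty-vector cells with the USP18 groups overlapping. Their interactions were -2.88 (SE 0.34, adjusted p = 1.16e-07) and -1.92 (SE 0.18, adjusted p = 1.79e-09), and their baseline differences were 5.00 and 5.02.

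FAM129A (ENSG00000135842.17, chromosome 1, 184790724 to 184974508), a stress-induced regulator of translation, stood at 7.52, 6.89 and 8.17 CPM with vehicle and 214, 217 and 217 under CP14 in the empty-vector controls, and at 29.3, 30.6 and 27.1 CPM with vehicle and 302, 305 and 297 under CP14 in USP18 cells. Both cell types rose strongly, and the gap between them narrowed. The interaction was -1.45 (SE 0.08, adjusted p = 4.2e-15), from a baseline difference of 1.93. PTX3, a soluble pattern receptor, and ANK2, an ankyrin, also rose more in empty-vector cells, with interactions of -2.31 and -1.32 and baseline differences of 4.69 and 2.14. PTX3 rests on counts of 10, 0 and 2 in empty-vector cells with vehicle, near the floor, and its interaction was -4.19 without replicate 1 of them.

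Further genes moved in opposite directions. UAP1L1 (ENSG00000197355.11, chromosome 9, 137077517 to 137084539) measured 9.04, 9.78 and 9.05 CPM in vehicle-treated empty-vector cells and 7.71, 7.36 and 7.40 CPM after CP14, as compared with 6.02, 5.01 and 5.32 CPM in vehicle-treated USP18 cells and 12.7, 17.0 and 16.2 CPM after CP14. DRD1 (ENSG00000184845.4, chromosome 5, 175440036 to 175444182), a dopamine receptor, stood at 3.14, 3.00 and 3.62 CPM with vehicle and 3.88, 4.33 and 4.45 under CP14 in the empty-vector controls, and at 17.1, 16.2 and 15.9 CPM with vehicle and 6.38, 6.64 and 5.89 under CP14 in USP18 cells. UAP1L1 fell in empty-vector and rose in USP18 cells, and DRD1 did the opposite, each without overlap between the groups of a cell type. Their interactions were 1.80 (SE 0.16, adjusted p = 3.72e-10) and -1.74 (SE 0.18, adjusted p = 3.08e-09), from baselines of -0.77 and 2.32.

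STARD13 (ENSG00000133121.21, chromosome 13, 33103137 to 33350630), a protein with a START lipid-binding domain, was at 11.9, 10.1 and 11.5 CPM with vehicle and 8.91, 6.65 and 7.79 CPM with the compound when cells carried the empty vector, and at 5.11, 4.66 and 5.52 CPM and 8.13, 11.6 and 12.3 CPM, in the same order, when they overexpressed USP18. IL6R (ENSG00000160712.13, chromosome 1, 154405193 to 154469450), the interleukin-6 receptor, stood at 16.7, 15.7 and 14.6 CPM with vehicle and 11.7, 9.52 and 10.6 under CP14 in the empty-vector controls, and at 14.7, 13.6 and 13.2 CPM with vehicle and 21.1, 29.0 and 27.5 under CP14 in USP18 cells. Both fell in empty-vector and rose in USP18 cells, where replicate 1 with CP14 was nearest to vehicle. Their interactions were 1.59 (SE 0.19, adjusted p = 2.08e-07) and 1.47 (SE 0.15, adjusted p = 6.09e-09).

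The rise in USP18 cells was larger for ALOXE3, a lipoxygenase of skin, at 2.28 (SE 0.45), for DLC1, another protein with that domain, at 1.82 (SE 0.28), for L1CAM, an adhesion molecule, at 1.77 (SE 0.16), and for MAPK8IP2, a scaffold of the JNK pathway, at 1.75 (SE 0.19). DLC1 had a baseline difference of -4.45 and L1CAM of -1.20. HLA-DMB, which helps load MHC class II, fell further in USP18 cells, at -2.06 (SE 0.31). GRB7, a signalling adaptor, ARID5B, a chromatin factor, ALPK2, a kinase, and TPPP, a tubulin-binding protein, were higher in response in USP18 cells by 1.41, 1.34, 1.33 and 1.24. UGT1A9, a glucuronidation enzyme whose exons are shared with its gene family, had counts of 299, 271 and 393 with vehicle and 118, 105 and 91 under CP14 with the empty vector, and 15, 7 and 10 with vehicle and 0, 2 and 0 under CP14 with USP18, the last at the floor. Its lower response lost the call with DESeq2 (adjusted p = 0.0658) and with all 54 samples fitted together (adjusted p = 0.218). The call was also lost without replicate 1 or 3 of USP18 cells with CP14 or replicate 1 with vehicle, with adjusted p-values in edgeR of 0.0797, 0.0876 and 0.0614.

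A list of 22 genes was taken from those that the study names. It leaves out others the study names, such as FOSB and NQO1. Of the list, 21 were tested, of which 5 were higher and 5 lower in response in USP18 cells. IL31RA, a cytokine receptor, rose in both cell types and more in USP18 cells, at 1.71 (SE 0.41). DYNLL1, a dynein light chain, had an interaction of -0.23, BANF1, a DNA-bridging protein, of -0.36, TUBA1C, an alpha tubulin, of -0.27, and ANXA2P2, an annexin pseudogene, of 0.67. NR4A2, an orphan nuclear receptor, fell in both cell types, at -0.57 (SE 0.20). It lost its call without replicate 1 or 3 of either CP14 group, replicate 1 of empty-vector cells with vehicle, or replicate 2 or 3 of USP18 cells with vehicle, at values from -0.38 to -0.57, and it was not called by DESeq2. KLK2 had counts of 0, 0 and 0 with vehicle and 6, 18 and 3 under CP14 with the empty vector, and 3, 14 and 5 with vehicle and 18, 12 and 7 under CP14 with USP18. NCCRP1 had counts of 11, 13 and 14 with vehicle and 1, 1 and 0 under CP14 with the empty vector, and 4, 2 and 4 with vehicle and 4, 6 and 3 under CP14 with USP18. Both were called, KLK2 lower and NCCRP1 higher in USP18 cells, on counts that reached the floor in a group, so no fold change is given. For DCC the counts were 1, 3 and 1 with vehicle and 0, 0 and 0 under CP14 with the empty vector, and 26, 35 and 25 with vehicle and 1, 1 and 2 under CP14 with USP18, and its interaction was not called. ENTPD1, OTUD7A and LINC00319, at -0.27, -0.41 and 0.51, were not called either. Over the alternatives ENTPD1 ran from -0.52 to 0.17, OTUD7A from -1.02 to 0.06 and LINC00319 from 0.09 to 1.00. FGF13 had too few counts to be tested.

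The difference between the cell types was also measured in treated samples that the interaction does not use, which is not a baseline. In 6 samples treated with 1 µM CP18, the lowest dose of another compound, the levels of the cell types were over 1 apart on the log2 scale for 1441 of 15200 genes (9.48%), 608 higher and 833 lower. Of the 221 genes with an interaction above 1 that were tested in both, 27.6% were lower and 5.88% higher in USP18 cells there. Of the 177 genes with an interaction below -1, 37.3% were higher and 10.2% lower. Over all 15118 genes tested in both, 3.96% were higher and 5.36% lower. The median difference was -0.45 for the former group and 0.49 for the latter.

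Read the other way, of 599 genes higher in USP18 cells at 1 µM CP18, 5.51% had a higher and 23.5% a lower response to 5 µM CP14 in USP18 cells. Of 811 genes lower there, 21.9% had a higher and 5.67% a lower response, and of the 13708 called in neither direction 14% and 15.4% did. JUN, FOSB and HNF4A were lower in USP18 cells at 1 µM CP18, with differences of -0.91, -0.95 and -1.32, and KCNQ3 was higher, with one of 4.32. CDKN1A was at -1.30 and CCN2 at 1.23. ALDH3A1 did not follow this direction, with a difference of -1.15 and a lower response, and MT-CO2 stood at 0.65, against -0.02 with vehicle. The median over mitochondrially encoded genes was 0.53 there, against -0.09 with vehicle.

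**Figure D4:**
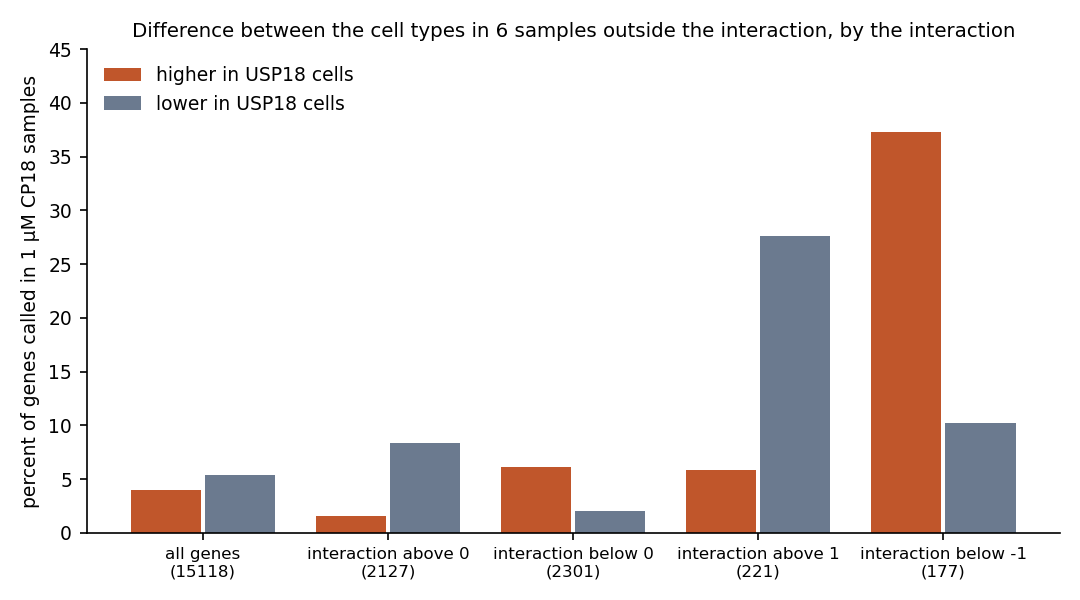
Percent of genes called higher (orange) or lower (grey) in USP18 cells in the 6 samples with 1 µM CP18, for all genes tested in both comparisons and by the sign and size of the interaction at 5 µM CP14 (numbers of genes in parentheses). Genes with an interaction above 1 were lower in 27.6% of cases, and genes below -1 were higher in 37.3%.

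An interaction formed from other samples, 2.5 µM CP14 against 1 µM CP18 in each cell type, called 2345 of 15774 genes (14.9%). It shares no sample with the interaction at 5 µM, and its dose and reference differ. The sign was the same for 62.8% of the 4450 interaction genes tested in both, against 56% of all 15513 genes. Among interaction genes past a size of 1 it was the same for 69% of 420, with 73.9% of the 238 above 1 and 62.6% of the 182 below -1. Genes called in both numbered 1063, or 790 with the same sign.

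Mean levels at the other CP14 doses are given for 3 genes. In empty-vector cells the mean level of JUN was 64.4, 69.7, 67.2 and 143.3 CPM at 0, 1, 2.5 and 5 µM, and in USP18 cells it was 26.5, 33.7, 47.8 and 181.1 CPM. The mean of JUN was thus higher at each successive dose in USP18 cells, and stood apart only at 5 µM in empty-vector cells. The mean of PDIA4 was 404.5, 405, 360.4 and 246.7 CPM in empty-vector cells and 486.6, 442.4, 347.1 and 166.5 CPM in USP18 cells. MT-CO2 was at 3853 and 3530 CPM at 2.5 µM, and at 1693 and 835.6 CPM at 5 µM, in empty-vector and USP18 cells. These doses were scaled over all 54 samples. Differences from vehicle, or between the cell types, at the lower CP14 doses were not tested gene by gene. In the interaction of 2.5 µM CP14 against 1 µM CP18, JUN was at 0.42, PDIA4 at -0.20 and MT-CO2 at -0.78. Their adjusted p-values in edgeR were 0.0284, 0.011 and 0.0262. The reference there is 1 µM CP18 and not vehicle. For MT-CO2 the cell types were apart at 1 µM CP18, unlike with vehicle, as given above. How much of its value comes from that reference was not tested.

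**Figure D5:**
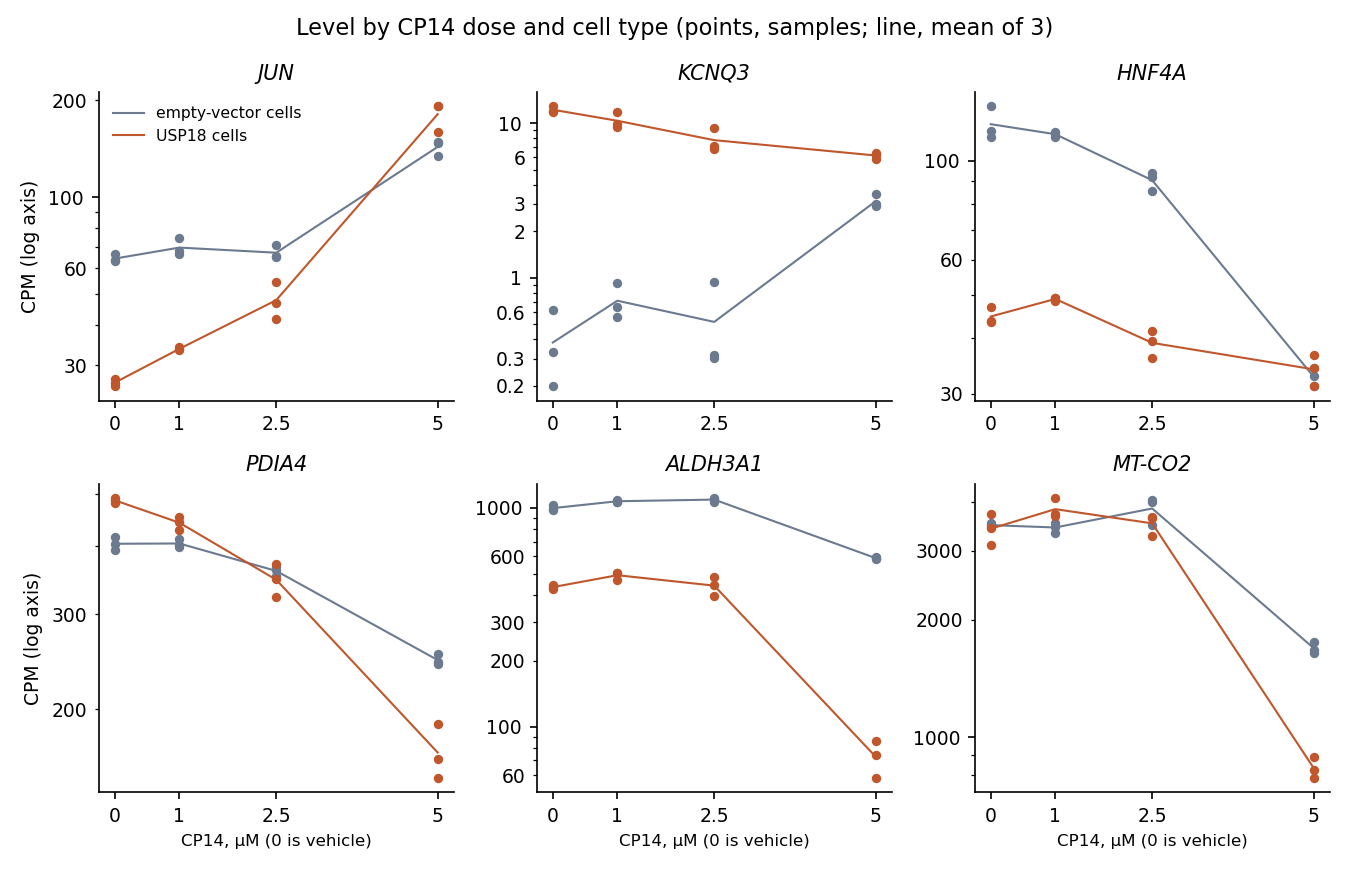
Level of 6 genes in CPM on a log axis against CP14 dose in µM, with points for samples, lines for the mean of 3, grey for empty-vector cells and orange for USP18 cells. The curves of JUN and PDIA4 cross, that of HNF4A meets at 5 µM, and those of ALDH3A1 and MT-CO2 drop at 5 µM, further in USP18 cells.

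The A549 label was checked on its defining genes. All 11 were tested, and their summed level was 28360, 28650 and 28180 CPM in empty-vector cells with vehicle and 15470, 15530 and 15890 with CP14. In USP18 cells it was 19260, 19430 and 19740 CPM with vehicle and 8160, 7303 and 7675 with CP14. ALDH1A1, a retinal dehydrogenase and the most abundant of them, had responses of -0.73 in empty-vector and -1.59 in USP18 cells. The label therefore held in all 4 groups, at a level that fell with CP14 and was lowest in USP18 cells with CP14, where 3 of the 11 genes had a higher and 5 a lower response. Of the higher ones, EPCAM, at 0.68, lost its call in 8 of 20 alternatives, DESeq2 among them, with values down to 0.50.

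Markers of other cells differed in level. None of 8 endothelial markers was abundant enough to be tested, 1 was at 0 in every sample, PECAM1 was the most abundant, and the sum was at most 0.557 CPM in any sample. Of 10 fibroblast markers 5 were tested, none was at 0 everywhere, and the sum was 18.2, 15.1 and 17.4 CPM in empty-vector cells with vehicle and 7.82, 8.16 and 8.40 with CP14. In USP18 cells it was 11.5, 10.7 and 12.4 CPM with vehicle and 4.79, 5.33 and 5.02 with CP14. Of 16 leukocyte markers 4 were tested and 4 were at 0 everywhere, and their sum was 43.5, 43.6 and 44 CPM with vehicle and 72.9, 81.3 and 70 under CP14 in empty-vector cells. In USP18 cells that sum was 40.4, 37.6 and 37.6 with vehicle and 101.7, 106.6 and 108.5 with CP14, of which CD68, a lysosomal protein, made up 96, 100.4 and 100.7. Of 12 alveolar type II markers 5 were tested and 2 were at 0 everywhere, and their sum was 259.2, 257.1 and 261.6 CPM in empty-vector cells with vehicle and 289.1, 296.6 and 295.8 with CP14. In USP18 cells it was 193.1, 189 and 184.1 CPM with vehicle and 278.3, 269.7 and 275.7 with CP14. LPCAT1, the most abundant over all 12 samples, fell with CP14, with log2 fold changes of -0.77 in empty-vector and -0.28 in USP18 cells, while LAMP3, ABCA3 and ETV5 rose in both. The part of other cells in the interaction was not tested.

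Leaving out 1 sample at a time gave between 3815 and 4847 interaction genes. The highest number came without replicate 1 of CP14-treated USP18 cells, which lay nearest to vehicle for JUN, PDIA4, HSP90B1 and IL6R. The lowest came without replicate 2 of the same group.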

How the data were processed

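RNA of 54 samples had been sequenced, and the deposited table gives expected counts per gene, made by the authors with Cutadapt 1.18, STAR 2.7.0f and RSEM 1.3.1 on hg38 with GENCODE annotation. The sources disagree, since the methods give RSEM 1.3.3 with a mouse GENCODE annotation, while the identifiers are human. For the mapping step the methods name the human genome with another GENCODE release. RSEM divides reads that map to several places, so levels of near-identical genes are uncertain. Of the values, 94.05% were whole (tolerance 1e-06), and all were rounded. The 12 samples were fitted together in edgeR 4.0.16 on R 4.3.3, with TMM scaling, filterByExpr (count of 10, total of 15) and a robust quasi-likelihood fit by group, and p-values were adjusted over all genes tested (Benjamini-Hochberg, two-sided). The same fit gave the responses and the differences between cell types. List levels used log2 CPM with a prior count of 2, and 3 counts was taken as the floor. Of 15947 tested identifiers, 15882 were found in GENCODE v44. The code was tested on simulated data.

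Members and lists were chosen with earlier results of these data known. Named genes were 22 of those the study names; then, among called interactions of a size over 1 and a mean of at least 5 CPM, the 5 largest in each of 4 patterns and the 5 largest called in opposite directions; then, in each list described, up to 4 called members with the largest interaction, and those against the majority where 3 or fewer. Other genes are marked in the text, and some genes that the rule picked are not reported here. Alternatives were no filter, at least 10 counts in every sample, RLE and library-size scaling, DESeq2 1.42.0, all 54 samples, a replicate block and each sample left out. A fit without robust estimation, and samples left out of the comparisons at 1 µM CP18 and of other samples, were added after seeing the data.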

Additional observations from a re-analysis of the deposited data

Results flagged for a closer look

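The response to 5 µM CP14 differed between USP18 and empty-vector cells for 4478 genes, and 336 of these were called in opposite directions, which stood out because the difference itself was tested as an interaction in edgeR. Among genes of at least 5 CPM called in opposite directions, the largest interactions on the log2 scale were -4.08 for KCNQ3, 1.80 for UAP1L1, -1.74 for DRD1, 1.59 for STARD13 and 1.47 for IL6R. Groups of 3 samples were not tested for outliers.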

How the results depend on the processing

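The number of interaction genes ran from 3829 (DESeq2) to 4485 (library size only), and from 3815 to 4847 with 1 sample left out. Between 82.8% and 98.8% of the 4478 genes were shared with each alternative, and 0 had the opposite sign. With at least 10 counts in every sample, where fewer genes were tested, 260 interaction genes passed a size of 1, the responses held 1334 (empty-vector) and 1840 (USP18) genes, and the cell types differed in 833 genes with vehicle, 769 with CP14 and 895 at 1 µM CP18. With 1 sample left out, interaction genes over 1 numbered 388 to 514, and the interaction of other samples held 1688 to 2378. With a replicate block, 4463 genes were called, 4385 of them shared, but replicate numbers did not pair, since 4 of 12 samples correlated best with samples of their own number. Of 148 named genes tested, 134 were called, and 16 lost the call in at least 1 fit with a sample left out, 8 with DESeq2. The median interaction over all genes moved from -0.00507 to 0.00406 with at least 10 counts and to 0.00803 with library size only, and ran from -0.0124 to 0.00318 with 1 sample left out.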
